A study of Mus musculus with 9 samples.

Results

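The genes described here encode the enzymes that write and erase marks on histones and DNA, together with the core subunits of Polycomb repressive complex 2 (PRC2), in type 1 invariant natural killer T (iNKT1) cells of the mouse. They were chosen by symbol: names beginning with Hdac, Sirt, Kat and a digit, Kdm, Kmt, Setd, Ezh, Dnmt, or Tet and a digit, plus Ep300, Crebbp, Suz12, Eed, Dot1l, Nsd1, Nsd2, Nsd3, Ehmt1 and Ehmt2, and without Kdm5c, Kdm5d and Kdm6a. The rule found 80 of the 14004 genes in the deposited table, of which 77 are protein coding and 3 are noncoding gene models (Dnmt3aos, Dnmt3l-ps1 and Kdm6bos). A further 8 symbols of the same form in the gene name table were not analysed here.

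RNA sequencing was done on iNKT1 cells from thymus, liver and spleen, with 3 libraries per tissue that the series calls independent replicates. All 9 libraries came from untreated C57BL/6 mice of the genotype Tbx21CreTg;Rosa26-LSL-YFP+/+, which the series uses as controls: a transgene drives Cre from Tbx21, and Cre opens a YFP reporter at Rosa26. The labels give no age or sex, no number of animals per library and no sorting gate, so the p-values below measure the spread between these libraries. Because total RNA of cell populations was measured, a smaller number of expressing cells and less RNA per cell cannot be told apart.

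Histone acetyltransferases add acetyl groups that accompany open, active chromatin, and histone deacetylases and sirtuins remove them. Methyltransferases of the SET domain family mark active promoters (H3K4), transcribed gene bodies (H3K36) or repressed chromatin (H3K9, H3K27 and H4K20), and the KDM demethylases take such marks off. DNMT enzymes methylate cytosine and TET dioxygenases oxidise the methyl group. In T cells and iNKT cells these enzymes are best known for setting and holding lineage-specific gene expression.

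The labelled cell type was visible in the table. All 14 genes of a T cell and iNKT1 list, among them Cd3e, Tbx21 (T-bet), Zbtb16 (PLZF) and Il2rb, were listed, and their summed normalised read counts were 131817 to 174214 in thymus, 171965 to 183228 in liver and 111213 to 132905 in spleen. Single genes of the list differed in either direction. Klrd1 was at 13285 to 20458 in thymus, 2565 to 4044 in liver and 2173 to 3420 in spleen. Il2rb was at 36385 to 40797 in thymus and 61549 to 71230 in liver. Library depth was uneven, with 3873237 to 39554383 reads recovered from the table's own steps, the lowest being liver replicate 3. Xist was at or above 84543 in the 3 libraries numbered 2 and at or below 16531 in the other 6. Other lists were low but not equal: summed over the 7 listed of 10 hepatocyte markers (Alb first) the range was 0.139 to 269.6 in thymus, 1350 to 1802 in liver and 0 to 14.1 in spleen. For the 6 listed of 8 B cell markers the ranges were 0.126 to 304.2, 5.95 to 759 and 65.9 to 4283, and Pax5 and Ebf1 were not in the table. The 5 listed of 8 myeloid markers summed to 10.6 to 315, 25.6 to 1298 and 56.3 to 3040, and the 5 listed of 7 immature thymocyte markers (Rag1, Cd8a) to 5.92 to 936.3, 88.8 to 1157 and 2.68 to 26.8. The 5 listed of 8 erythroid markers summed to 2.45 to 287, 10.2 to 211 and 56.2 to 606. Each of the 6 B cell markers was highest in spleen replicate 1, where Cd22 was at 1963, against 65.3 and 120 in spleen replicates 2 and 3. Csf1r was also highest there (1297), while Lyz2 was highest in liver replicate 3 (404). Rag1 was at 486 in thymus replicate 3 and under 1 in every other library, whereas Cd8a was highest in liver replicate 1 (1116). The part of these RNAs in the tissue differences given below was not tested.

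All 80 genes passed the filter on low values, and together they made up 0.823% to 1.12% of each library's total. None differed between tissues at an adjusted p under 0.05 (limma-trend on log2(value + 1), Benjamini-Hochberg adjustment over the 13309 genes tested). This was so for any tissue difference, where 0.346% of all genes tested were called, for liver against thymus (0.323%), for spleen against thymus (0.398%) and for liver against spleen (0.015%). The smallest adjusted p was 0.11 for liver against thymus and 0.181 for spleen against thymus, both from Kat6a, and 0.9999 for liver against spleen. DESeq2 on reads recovered from the table called 482 of its 14004 genes at an adjusted p under 0.05 in liver against thymus. In spleen against thymus it called 538. Of the 80, 3 were called in liver (Kat6a, Kdm2a and Hdac6) and 2 in spleen (Kat6a and Sirt4). These counts are read here as near the share over the whole table. The quasi-likelihood fit of edgeR to those reads called 17 and 32 genes, with none of the 80 among them. Both thymus comparisons use the same 3 thymus libraries, so their values are given side by side and are not independent of each other.

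At an unadjusted p under 0.05, 11 of the 80 differed between tissues in any way (13.8%, against 9.95% of all genes). In liver against thymus 5 were higher (all genes 7.72%) and 5 lower (3.92%). In spleen against thymus 7 were higher (7.56%) and 5 lower (4.13%), and in liver against spleen 0 were higher (1.72%) and 1 lower (1.31%). Counted by libraries that do not overlap, liver lay above thymus for 6 genes (9.61% of all genes) and below for 9 (5.73%). Spleen lay above thymus for 9 (9.29%) and below for 7 (6.03%), and liver above spleen for 4 (5.97%) and below for 8 (6.77%). Over both directions these shares were 18.8%, 20% and 15% of the 80, beside 15.3%, 15.3% and 12.7% of all genes, and are read here as near the background. By direction the gap was widest for liver below thymus, 11.25% of the 80 beside 5.73%, while liver above thymus was 7.5% beside 9.61%. The shares of all genes are not matched for level.

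The median log2 difference of the 80 was 0.03 for liver against thymus, 0.02 for spleen against thymus and -0.06 for liver against spleen, beside 0.29, 0.33 and -0.02 over all genes tested. These medians move with the scaling: rescaling the libraries by TMM factors (trimmed mean of M values) put the thymus comparisons at -0.25 and -0.29, and equal upper quartiles put them at 0.39 and 0.35, while the median of all genes moved to 0.04 in both or to 0.63 and 0.65. At a mean of at least 2000 these scalings move each gene's difference from thymus by nearly the same amount: -0.285 in liver and -0.311 in spleen with TMM, and 0.363 and 0.361 with equal upper quartiles. Differences of well-expressed genes under about 1 log2 unit therefore change in size with the scaling, those smaller than the shift can change sign, and statements on overlap below hold for the values as deposited. The median standard error of the 80 was 0.58, against 1.19 over all genes, but at like levels the 2 were close. It was 1.63 against 1.79 at a mean under 500, 0.65 against 0.69 at 500 to 2000, and 0.34 against 0.38 from 2000 up. The 95% interval of the difference stayed within 1 log2 unit on both sides of 0 for only 13, 13 and 15 of the 80 in the 3 comparisons.

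The direction varied with the level, as it did over all genes. Among the 31 genes with a mean of at least 2000, 21 had a lower and 10 a higher liver mean than thymus on the log scale. Their median was -0.24 (all 2135 genes at that level, -0.11, with 42.4% higher). In spleen against thymus 19 were lower and 12 higher, with a median of -0.09 (all genes, -0.11, with 41.9% higher). Among the 19 genes with a mean under 500, 15 were higher and 4 lower in liver against thymus. Their median was 1.11 (all 7425 genes at that level, 0.91, with 68.4% higher). In spleen 12 of the 19 were higher and 7 lower, and their median of 0.35 was below that of all genes (0.95, with 70.0% higher). Thymus replicates 1 and 2 had more of their genes at 3 reads or fewer, 25.2% and 24.1% of all genes tested, than thymus replicate 3 (13.1%) or the liver and spleen libraries (6.49% to 16.7%). Of the 80, 7, 10 and 3 were at 3 reads or fewer in thymus replicates 1, 2 and 3, and 0 to 3 in each other library. The part of this low-level dropout in the differences of weakly expressed genes was not tested.

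**Figure D1:**
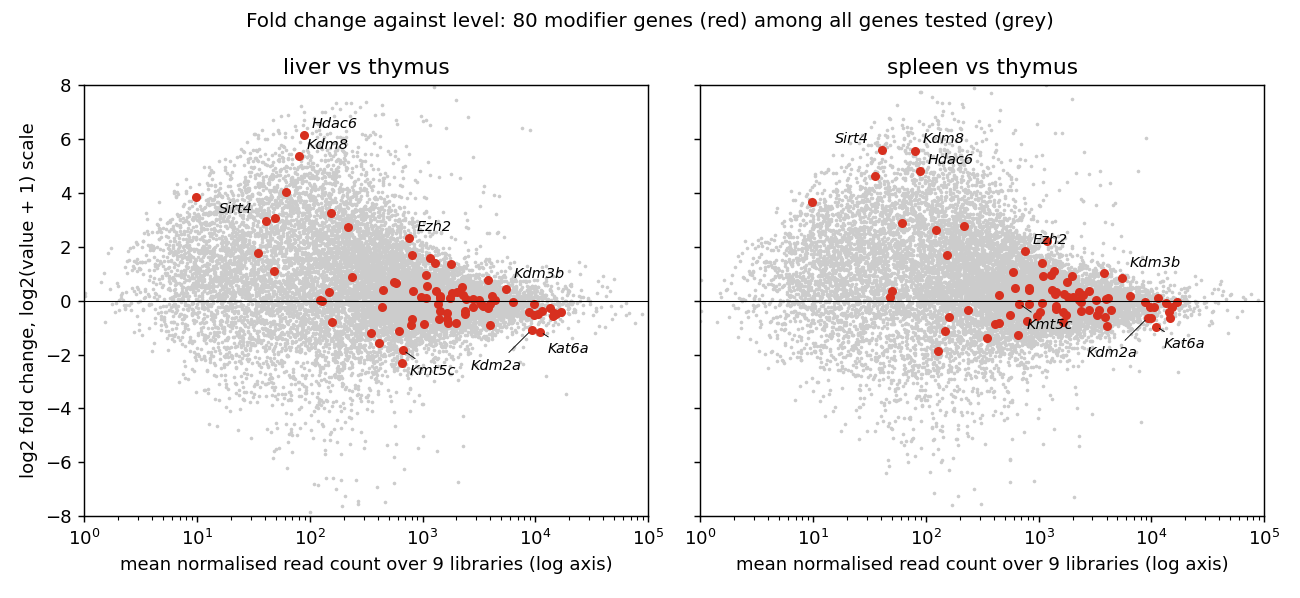
Log2 fold change on the log2(value + 1) scale against the mean normalised read count over 9 libraries (log axis), for liver against thymus (left) and spleen against thymus (right); red points are the 80 modifier genes and grey points all other genes tested, of which a few lie beyond the ends of the vertical axis. Kat6a and Kdm2a lie at the high end with negative values, and Hdac6 and Kdm8 lie at the low end with values above 4.

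Among acetyltransferases, Kat6a (MOZ), the catalytic subunit of a MYST family complex that acetylates histone H3, stood first. Its normalised read counts were 15552, 24475 and 11691 in thymus, 8766, 7161 and 6402 in liver, and 8317, 8495 and 8523 in spleen. Every thymus library was above every liver and spleen library, and spleen had the narrowest spread of the 80 genes there (SD of 0.019 on the log2 scale). The log2 difference was -1.16 (SE 0.27, limma-trend unadjusted p = 0.00065, adjusted p = 0.11) for liver and -0.96 (SE 0.27, unadjusted p = 0.0028, adjusted p = 0.181) for spleen against thymus. Its sign held in all 23 alternatives for both comparisons, with values from -1.44 to -0.79 for liver and -1.27 to -0.60 for spleen. Without thymus replicate 3 the liver difference passed the threshold, with an adjusted p of 0.030 by limma-trend. In that setting the calls over all genes also rose, to 151 (123 higher) from 43 (27 higher) with all 9 libraries.

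Per kilobase of exon Kat6a was the highest acetyltransferase at 1203 and its paralog Kat6b the lowest at 97.5. Kat6a made up 93.9% ± 0.546 of the pair per kilobase in thymus, 90.5% ± 0.861 in liver and 91.2% ± 2.50 in spleen (SD, n = 3). Kat6b itself was at 1462 to 2573 in thymus, 1220 to 1753 in liver and 1047 to 2010 in spleen, ranges that overlap. So Kat6a carried nearly all of the pair's level in each tissue.

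Ep300 and Crebbp encode p300 and CBP, the broad coactivators that acetylate enhancers. Ep300 was at 11337, 16344 and 10414 in thymus, 10327, 9472 and 6723 in liver, and 8404, 7912 and 7575 in spleen. No thymus library overlapped another tissue, though thymus replicate 3 and liver replicate 1 were nearly equal. The differences were -0.52 (SE 0.26, unadjusted p = 0.061, adjusted p = 0.451) in liver and -0.65 (SE 0.26, unadjusted p = 0.023, adjusted p = 0.333) in spleen by limma-trend. Over the scalings the spleen value ran from -0.96 to -0.29. Crebbp was at 8774, 15382 and 13707 in thymus, 7947, 10858 and 7480 in liver, and 12057, 9850 and 9314 in spleen, with overlap throughout. Per kilobase the pair was near balance, Ep300 holding 49.1% ± 6.67 in thymus, 48.8% ± 5.53 in liver and 42.2% ± 2.08 in spleen.

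The other acetyltransferases spread more widely between replicates. Kat7 (HBO1) was at 535, 836 and 1855 in thymus and 4459, 1643 and 1926 in liver, where thymus replicate 3 overlaps liver, with a difference of 1.36 (SE 0.57, limma-trend unadjusted p = 0.030, adjusted p = 0.375). Kat2b (PCAF) was at 960 to 2778 in thymus, 1389 to 3235 in liver and 690 to 2007 in spleen. Kat8 (MOF), which acetylates histone H4, had the lowest mean of the group before division by length, at 347 over the 9 libraries. Summed over the 10 acetyltransferases, the normalised read counts were 44789 to 62674 in thymus, 29831 to 37759 in liver and 32617 to 36896 in spleen. The thymus sums did not overlap the others as deposited, with TMM or with equal column totals, but did with equal upper quartiles (34136 to 49395 in thymus, 34671 to 42414 in liver and 36044 to 37812 in spleen). Kat6a, Ep300 and Crebbp supply most of that sum.

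**Figure D2:**
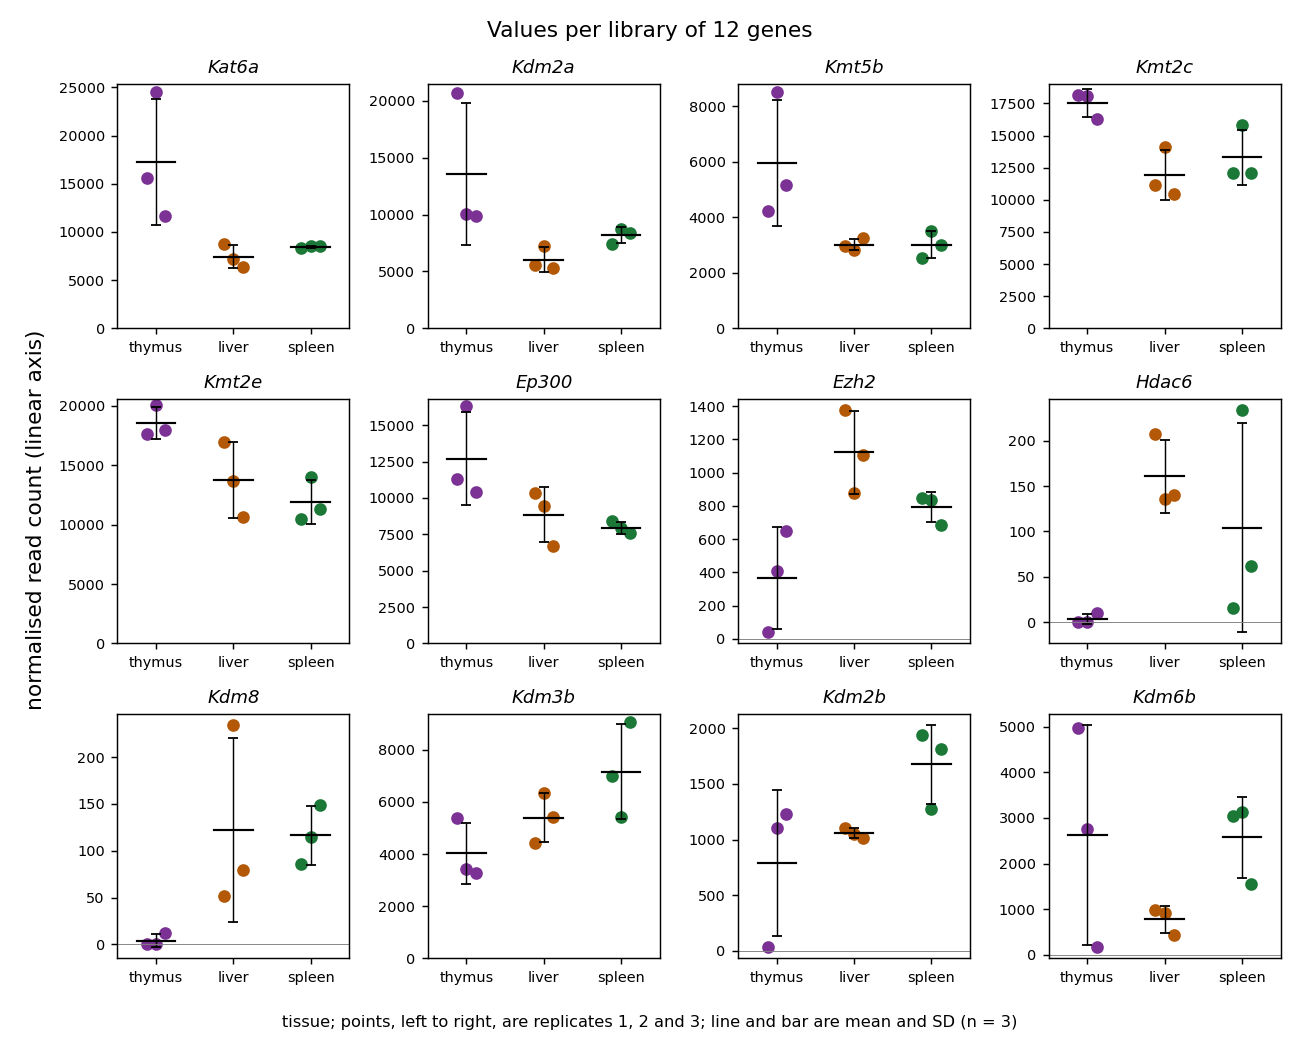
Normalised read count per library (linear axes from 0, scaled per gene) of 12 genes in thymus, liver and spleen; points from left to right are replicates 1, 2 and 3, and the line and bar are the mean and SD (n = 3). Kat6a, Kdm2a, Kmt5b and Ep300 have all thymus points above the liver and spleen points, whereas the thymus points of Kdm6b run from 166 to 4972.

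Among class I deacetylases, Hdac1 and Hdac2 of the Sin3 and NuRD corepressor complexes varied less between libraries than Hdac3 and Hdac8. Hdac1 was at 1528, 2722 and 2316 in thymus, 2858, 2325 and 2296 in liver, and 1870, 2378 and 2186 in spleen. The differences from thymus were 0.22 (95% interval -0.59 to 1.03) in liver and 0.00 (-0.80 to 0.81) in spleen. Hdac2 lay at 1168 to 1327, 1224 to 1753 and 1220 to 2078. Hdac3, the NCoR-bound member, was lower and scattered, at 203, 337 and 859 in thymus, 676, 321 and 165 in liver and 424, 334 and 646 in spleen. Per kilobase Hdac1 led the class at 660.5 and Hdac8, at 56.6 to 469 over the 9 libraries, closed it at 48.5, and Hdac1 supplied 58.3% ± 4.59 of the 4 genes in thymus, 60.6% ± 3.55 in liver and 55.3% ± 2.67 in spleen.

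In class IIa, whose members shuttle between nucleus and cytoplasm under signals, Hdac7 dominated. This deacetylase, known for its part in T cell selection and iNKT development, gave 74.0% ± 8.89 of the class per kilobase in thymus, 83.2% ± 7.53 in liver and 80.3% ± 8.22 in spleen. Hdac7 counts were 7877, 2272 and 2417 in thymus, 4452, 2943 and 2538 in liver and 1940, 2619 and 2808 in spleen, so only thymus replicate 1 stood high. Hdac4 was at 1277, 1040 and 908 in thymus against 456, 963 and 407 in liver, which overlap, with a difference of -0.92 (95% interval -2.25 to 0.41). Hdac9 was the weakest of the 80 per kilobase, at 3.39, and had the widest spread in liver (397, 26.6 and 0.799; SD of 3.90 on the log2 scale). It was at 1.15, 1.19 and 6.33 in thymus and 10.4, 1.31 and 1.71 in spleen.

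Hdac6 (class IIb) is mainly a cytoplasmic deacetylase that acts on tubulin. It was at 0.0212, 0.0274 and 10.1 in thymus, 207, 136 and 140 in liver, and 15.6, 234 and 62.3 in spleen. The thymus values correspond to 0, 0 and 8 reads, and no liver or spleen library fell as low. The fitted differences, which depend on the pseudocount at this level, were 6.13 (SE 1.79, limma-trend unadjusted p = 0.0037, adjusted p = 0.202) in liver and 4.79 (SE 1.79, unadjusted p = 0.017, adjusted p = 0.311) in spleen. With a pseudocount of 5 they were 4.49 and 3.25, and leaving out a library gave 5.56 to 7.28 in liver and 3.84 to 5.94 in spleen. Hdac11 (class IV) lay at 0.0211 to 21.4 in thymus, 22.3 to 109 in liver and 3.38 to 296 in spleen. The highest mean of this small group belonged to Hdac10, at 129, with values from 6.13 to 304.

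The promoters of Hdac6 and of Kmt5b, a gene with the opposite direction described below, are shown as 1 example each. They were picked after their values were seen and do not represent the other genes of either direction. Each is the 250 bases before a RefSeq start (GRCm38.p6), the only one listed for Hdac6 and the first of 2 for Kmt5b, 5′ to 3′ on the gene's strand, with capitals marking the Sp1 motif GGGCGG and the CCAAT motif on either strand. The Hdac6 window is chrX:7947890-7948139 on the minus strand, and the Kmt5b window is chr19:3767171-3767420 on the plus strand.
Hdac6: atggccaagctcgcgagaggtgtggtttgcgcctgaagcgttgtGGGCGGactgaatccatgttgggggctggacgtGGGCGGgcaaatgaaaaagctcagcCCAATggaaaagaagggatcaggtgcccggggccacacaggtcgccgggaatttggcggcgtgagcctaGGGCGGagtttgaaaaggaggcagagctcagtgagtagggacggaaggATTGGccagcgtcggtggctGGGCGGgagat
Kmt5b: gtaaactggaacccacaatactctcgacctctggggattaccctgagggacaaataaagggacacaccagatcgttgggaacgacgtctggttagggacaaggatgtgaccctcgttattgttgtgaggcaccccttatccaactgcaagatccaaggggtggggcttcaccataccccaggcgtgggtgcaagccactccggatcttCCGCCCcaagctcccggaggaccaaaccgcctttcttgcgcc
The Hdac6 window holds 4 Sp1 motifs, 2 CCAAT motifs and 17 CpG, and the Kmt5b window 1 Sp1 motif, 0 CCAAT motifs and 11 CpG. The window of the other Kmt5b start, not shown, has 31 CpG and 73.2% GC, so the order of the 2 genes in CpG depends on the start taken. RefSeq promoters were found for 63 of the 80 genes, 88 windows in all. Their median was 18.5 CpG and 62.6% GC, beside 6 CpG and 52.4% over all 32851 windows of that length in the table. The Sp1 motif was in 62.5% of them (all windows 32.7%), the CCAAT motif in 38.6% (33.9%) and the TATA motif TATAAA in 2.27% (12.4%), in Hdac8 and Hdac9. The E2F motif TTTCCCGC was in 3 of the 88 (3.41%, against 0.895% of all windows), those of Kmt5c, Sirt4 and Suz12, and its second form TTTGGCGC in 0 (0.417%). These are letter matches on both strands and no measurement of binding.

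Sirtuins, the NAD-dependent deacylases, ranged from Sirt7, a nucleolar enzyme with a mean of 2805, to the mitochondrial Sirt4, at 41.0. Sirt4 had no read in any thymus library, was at 0, 15.4 and 30.9 in liver and at 88.1, 4.74 and 229 in spleen. Against a floor of 3 reads in each thymus library the spleen mean was at least 30.4-fold higher. That mean rests on spleen replicates 1 and 3, as the spleen libraries had 118, 7 and 382 reads. The liver mean was 4.38 times that floor, but the liver libraries had 0, 18 and 5 reads, so no lower bound is given for liver. The fitted spleen difference had an unadjusted p of 0.010 and an adjusted p of 0.267 by limma-trend. Sirt1, the best-known nuclear member, was at 2260, 703 and 555 in thymus, 1182, 978 and 994 in liver and 413, 779 and 863 in spleen. All its liver libraries lay above all its spleen libraries, with a difference of 0.68 (95% interval -0.65 to 2.02). Sirt3, a mitochondrial deacetylase, had the widest spread of the 80 in thymus (532, 1.19 and 242; SD of 4.29). For Sirt6, every liver library (363, 271 and 194) was above every thymus library (5.63, 162 and 60.2).

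The H3K4 methyltransferases, a group in which Kmt2e is placed here by name only, held the highest levels of the whole set. Kmt2a (MLL1) had the highest mean, 17024, and Kmt2e (MLL5) the highest level per kilobase, 1412, while Setd1b was lowest per kilobase at 139. Kmt2c (MLL3), an enhancer methyltransferase, was at 18186, 18113 and 16261 in thymus, 11142, 14135 and 10472 in liver, and 12055, 15798 and 12124 in spleen. Thymus was above both other tissues without overlap, with differences of -0.57 (SE 0.21, limma-trend unadjusted p = 0.017, adjusted p = 0.316) in liver and -0.40 (SE 0.21, unadjusted p = 0.076, adjusted p = 0.473) in spleen. Over the scalings the liver value ran from -0.85 to -0.20. Kmt2e showed the same order of thymus over the rest: 17670, 20106 and 17938 in thymus, 16960, 13675 and 10642 in liver, and 10455, 14010 and 11306 in spleen. The difference from thymus was -0.46 (SE 0.22, unadjusted p = 0.059, adjusted p = 0.445) in liver and -0.65 (SE 0.22, unadjusted p = 0.011, adjusted p = 0.269) in spleen by limma-trend, and the latter ran from -0.96 to -0.29 over the scalings.

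Kmt2a was lowest in liver (15458, 16659 and 10666), with thymus at 17979, 21315 and 16951 and spleen at 19138, 17090 and 17965. The liver libraries overlapped neither other tissue, with differences of -0.41 (95% interval -0.87 to 0.04) from thymus and -0.37 (-0.82 to 0.09) from spleen. Kmt2d (MLL4), the paralog of Kmt2c, overlapped between tissues at 10345 to 19247, 10012 to 13317 and 10783 to 15358. Setd1a had the lowest mean, 1095. The summed counts of the 8 genes were 75085 to 81961 in thymus, 48354 to 66482 in liver and 64725 to 70463 in spleen, so the thymus sums stood above the others as deposited. They overlapped both other tissues with equal column totals, and with equal upper quartiles the spleen mean (73441) was above the thymus mean (66356).

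H3K36 methyltransferases were led by Nsd1, at 15204 on average and 870 per kilobase. Nsd1 was at 20493, 16209 and 16586 in thymus, 16711, 12937 and 9255 in liver and 15540, 15228 and 13881 in spleen, and only thymus and spleen did not overlap. Setd2, the trimethylating enzyme of transcribed genes, had the narrowest spread of the 80 in liver (5690, 5860 and 5930; SD of 0.031) and lay at 9849, 3677 and 6234 in thymus and 6125, 7287 and 6941 in spleen. Nsd2, which dimethylates the same residue, was lowest per kilobase at 121 and ran from 567 to 3559 in thymus, 1495 to 2403 in liver and 1249 to 3154 in spleen. Setd3, grouped here by name although it is best known for methylating actin, had the lowest mean, 1639, and was at 289, 7388 and 1568 in thymus, so its thymus mean rests on replicate 2.

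PRC2 writes the repressive H3K27 methyl mark through Ezh1 or Ezh2, with Suz12 and Eed as its obligate partners. Ezh2, the form best known from dividing cells, was at 39.3, 407 and 649 in thymus, 1378, 880 and 1109 in liver, and 850, 836 and 687 in spleen. The 3 tissues did not overlap, with thymus lowest and liver highest. The difference was 2.33 (SE 0.89, limma-trend unadjusted p = 0.019, adjusted p = 0.319) in liver and 1.84 (SE 0.89, unadjusted p = 0.055, adjusted p = 0.438) in spleen against thymus, and 0.49 (SE 0.89, adjusted p = 0.9999) in liver against spleen. It leans on thymus replicate 1: leaving out a library at a time gave liver values between 1.10 and 3.11.

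Cell cycle genes also had higher sums in liver than in thymus. The 14 genes of a fixed list, which holds Mki67 and Top2a, summed to 6743 to 11495 in thymus, 11845 to 23577 in liver and 7226 to 18012 in spleen, and 7 of the 14 were higher in liver than thymus at an unadjusted p under 0.05 (all genes 7.72%). In spleen 2 were higher (all genes 7.56%), and none of the 14 passed the adjusted threshold in either comparison. B cell markers summed to 4283 in spleen at most and were highest in spleen replicate 1, as given above. The part of these in the Ezh2 values was not tested.

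Its partners showed no such order. Suz12 was at 5976, 1509 and 4946 in thymus, 4848, 3293 and 4058 in liver and 5843, 2506 and 3857 in spleen, and led the complex per kilobase at 828, while Ezh2 was lowest at 114. Eed was at 742 to 1577, 1139 to 1544 and 1217 to 1617, and Ezh1 at 740 to 2626, 1333 to 2503 and 1209 to 2041. Of the per-kilobase sum of Ezh1 and Ezh2, Ezh2 made up 2.19%, 38.0% and 21.6% in thymus, 42.9%, 28.1% and 48.1% in liver, and 32.4%, 43.5% and 27.3% in spleen. Thymus replicate 2 thus had a higher share than 3 of the 6 liver and spleen libraries, although its Ezh2 count was lower than in all of them.

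Among the H4K20 methyltransferases, Kmt5b (SUV420H1) and Kmt5c (SUV420H2) extend the methylation that Kmt5a begins. Kmt5b was at 4221, 8521 and 5156 in thymus, 2979, 2841 and 3247 in liver, and 2531, 3513 and 3017 in spleen. Thymus stood above both other tissues without overlap, while liver and spleen were level, with a difference of 0.01 (95% interval -0.71 to 0.73). Against thymus the difference was -0.92 (SE 0.34, limma-trend unadjusted p = 0.016, adjusted p = 0.308) in liver and -0.93 (SE 0.34, unadjusted p = 0.015, adjusted p = 0.295) in spleen.

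Kmt5c was low in liver. Its values were 1540, 875 and 395 in thymus, 291, 212 and 189 in liver, and 769, 416 and 1327 in spleen. All liver libraries lay below all others, with a difference of -1.83 (SE 0.75, limma-trend unadjusted p = 0.027, adjusted p = 0.364) from thymus and -1.72 (SE 0.75, unadjusted p = 0.036, adjusted p = 0.9999) from spleen. The last was the 1 gene of the 80 with an unadjusted p under 0.05 in liver against spleen. Kmt5a was also lower in each liver library (710, 1038 and 885) than in each spleen library (3278, 1593 and 1532), with a difference of -1.20 (SE 0.57, unadjusted p = 0.051, adjusted p = 0.9999 by limma-trend). Dot1l, the sole H3K79 methyltransferase, was lowest of these per kilobase at 122 and overlapped at 584 to 1880, 752 to 1241 and 409 to 1365.

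For the H3K9 methyltransferases no tissue stood apart from thymus. Setdb1 had the highest mean, 1425, and Setdb2 the lowest, 555. Ehmt1 (GLP) and Ehmt2 (G9a), which dimethylate H3K9 as a heterodimer, were at 971 to 2516 and 776 to 1027 in thymus, 773 to 1154 and 331 to 1066 in liver, and 1151 to 2097 and 763 to 970 in spleen. The liver difference from thymus was -0.67 (95% interval -1.76 to 0.42) for Ehmt1 and -0.69 (-1.96 to 0.58) for Ehmt2, intervals too wide to place either. All Setdb2 liver libraries (1186, 608 and 606) lay above all spleen libraries (338, 279 and 368). The remaining SET domain genes, Setd4 and Setd6, had means of 123 and 447, and Setd6 ran from 27.8 to 1510 among the thymus libraries.

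Among lysine demethylases Kdm2a, a CpG-binding H3K36 demethylase, came nearest to a tissue difference. It was at 20710, 10068 and 9885 in thymus, 5586, 7268 and 5282 in liver, and 7454, 8744 and 8410 in spleen. The 3 tissues did not overlap, in the order thymus, spleen, liver, although the thymus mean is raised by replicate 1. The difference from thymus was -1.09 (SE 0.30, limma-trend unadjusted p = 0.0022, adjusted p = 0.183) in liver and -0.64 (SE 0.30, unadjusted p = 0.047, adjusted p = 0.420) in spleen. The spleen value kept an unadjusted p under 0.05 in 10 of 23 alternatives, the liver value in 23 of 23.

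Its paralog Kdm2b, which recruits a Polycomb repressive complex 1 variant to CpG islands, had its lowest value in thymus. It was at 32.5, 1107 and 1232 in thymus, 1107, 1055 and 1018 in liver, and 1944, 1273 and 1812 in spleen. Spleen lay above both other tissues, with a difference from thymus of 2.21 (SE 1.02, limma-trend unadjusted p = 0.047, adjusted p = 0.419) that was 0.50 at the lowest when a library was left out. Kdm2b made up 0.208%, 12.7% and 14.2% of the pair per kilobase in thymus, 16.2% to 20.8% in liver and 16.2% to 25.7% in spleen. Every thymus library was thus below every other library in that share.

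Kdm1a (LSD1), the flavin-dependent H3K4 demethylase, overlapped at 1258 to 2790, 2003 to 3675 and 1761 to 2559, and Kdm1b was lowest of the group by mean at 1033. Kdm3b, an H3K9 demethylase, was at 5380, 3423 and 3290 in thymus, 4429, 6333 and 5427 in liver, and 6977, 5429 and 9068 in spleen. Spleen was above thymus without overlap, by a narrow margin, with a difference of 0.83 (SE 0.31, limma-trend unadjusted p = 0.017, adjusted p = 0.312). All 6 genes of the KDM3 and KDM4 families had a lower liver than spleen mean on the log scale, with a median of -0.36. Of these, 0 were at an unadjusted p under 0.05 by limma-trend. The plain mean of Kdm4d was higher in liver, at 142 against 135 in spleen. In the same comparison 48.9% of all genes were higher in liver, and of the modifier genes 35 were higher and 45 lower. Whether the shared direction of these 6 exceeds that background was not tested. Kdm4c led the KDM3 and KDM4 families per kilobase at 421, and Kdm4d closed them at 55.6.

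Kdm6b (JMJD3), which removes H3K27 methylation and is induced by activating signals, was among the most variable well-expressed genes. It was at 4972, 2757 and 166 in thymus, 981, 918 and 443 in liver, and 3035, 3126 and 1558 in spleen. Every spleen library was above every liver library, with a difference in liver against spleen of -1.74 (SE 0.92, limma-trend unadjusted p = 0.079, adjusted p = 0.9999), while thymus spanned both. The noncoding Kdm6bos lies inside Kdm6b on the opposite strand. Whether counting used strand is not given in the sources used here, so reads of the pair cannot be told apart. Kdm6bos had no read in thymus and was at 11.3, 31.8 and 7.10 in liver and 10.4, 8.88 and 18.6 in spleen. Against a floor of 3 reads in each thymus library the spleen mean was at least 3.57-fold higher. The liver mean was 4.74 times that floor, but the liver libraries had 13, 37 and 1 reads, so no lower bound is given for liver.

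Kdm5a, a demethylase of trimethylated H3K4, had the highest mean of its group, 11518, with overlap at 9587 to 17232, 8280 to 10560 and 10386 to 14465. Kdm8, a JmjC domain dioxygenase, had the lowest, 80.9. It was at 0.0211, 0.0273 and 12.6 in thymus, 52.2, 234 and 79.4 in liver, and 85.7, 115 and 149 in spleen, so that thymus lay below both other tissues without overlap. The fitted differences were 5.37 (SE 1.74, limma-trend unadjusted p = 0.0075, adjusted p = 0.261) and 5.56 (SE 1.74, unadjusted p = 0.0060, adjusted p = 0.227). With a pseudocount of 5 they were 3.78 and 3.96, and leaving out a library gave 4.75 to 6.61 in liver and 4.94 to 6.81 in spleen. As for Hdac6, 2 of the 3 thymus libraries had no read.

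DNA methyltransferases overlapped in all tissues. Dnmt1, the maintenance enzyme, was at 4267, 5605 and 4001 in thymus, 3817, 4743 and 5699 in liver, and 3831, 2581 and 4605 in spleen. The de novo enzymes Dnmt3a and Dnmt3b were at 2372 to 3638 and 485 to 699 in thymus, 2290 to 4676 and 565 to 962 in liver, and 2981 to 3292 and 432 to 2084 in spleen. The liver difference from thymus was 0.04 for Dnmt1 (95% interval -0.66 to 0.73) and 0.03 for Dnmt3a (-0.74 to 0.79), so a change of 2-fold lay outside both intervals. Per kilobase Dnmt1 made up 66.6% ± 3.97 of the 3 enzymes in thymus, 64.2% ± 9.76 in liver and 56.4% ± 7.65 in spleen. The antisense gene Dnmt3aos was at 0.0210, 0.0271 and 18.9 in thymus, 0, 17.1 and 43.1 in liver, and 144, 33.7 and 58.7 in spleen. The spleen difference of 4.61 (SE 1.97, limma-trend unadjusted p = 0.033, adjusted p = 0.372) has the same limit of unknown strand. Dnmt3l-ps1, a pseudogene model, had the widest spread of the 80 in spleen (0, 0 and 208).

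TET enzymes overlapped in all tissues. Tet2, the member most studied in T cells, was at 3223, 3526 and 4530 in thymus, 5583, 2642 and 2357 in liver and 4325, 2696 and 2166 in spleen. Tet3 was at 6926, 2793 and 2822, at 2478, 4721 and 3519, and at 5050, 3351 and 3746, in the same order. Tet1 was lowest, at 147, 1400 and 674 in thymus, 707, 1026 and 1356 in liver, and 947, 1959 and 1419 in spleen. Per kilobase Tet3 led at 236 and Tet1 closed at 69.3. The spleen difference of Tet1 from thymus was 1.41 (95% interval -0.15 to 2.97), with its lowest value in thymus replicate 1.

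**Figure D3:**
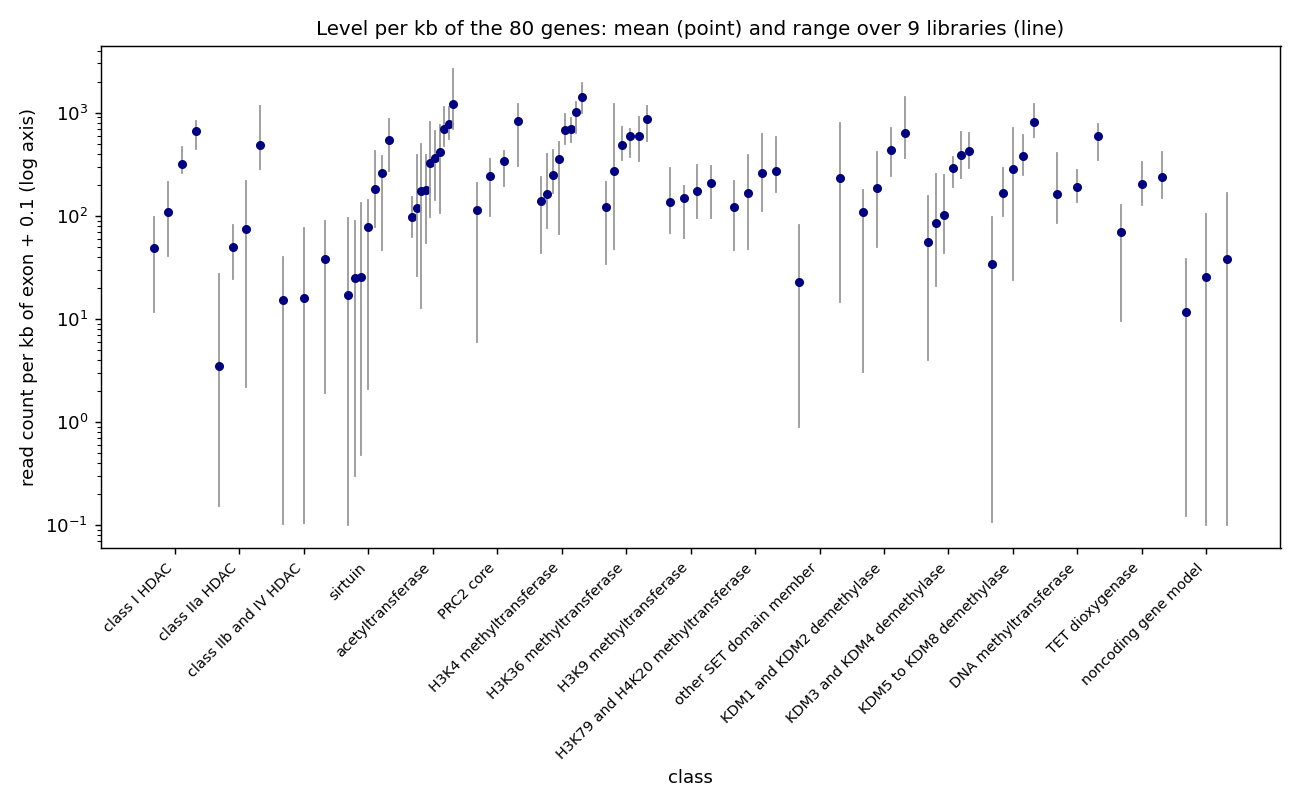
Mean (point) and range over 9 libraries (line) of the normalised read count per kilobase of exon, with 0.1 added, on a log axis, for the 80 genes by class. Kmt2e (1412) and Kat6a (1203) are the highest points and Hdac9 (3.39) the lowest, and lines that reach the bottom belong to genes with no read in at least 1 library.

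Variation between replicates was largest in thymus. The median SD on the log2 scale over the 80 genes was 0.82 in thymus, 0.42 in liver and 0.52 in spleen, beside 1.34, 0.76 and 0.77 over all genes tested. At a mean of at least 2000 the medians were 0.43, 0.29 and 0.28 for the 31 modifier genes and 0.52, 0.29 and 0.29 for all 2135. Of the 61 genes with a mean of at least 500, 12 had a highest thymus library over 5 times the lowest, against 3 in liver and 1 in spleen. The share of all genes past this range was not computed, so these counts cannot be set against a background. The thymus genes were Ezh2, Hdac5, Kat14, Kat5, Kdm1b, Kdm2b, Kdm6b, Nsd2, Setd3, Setd7, Sirt2 and Tet1. Kat14 was in this state in all 3 tissues.

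**Figure D4:**
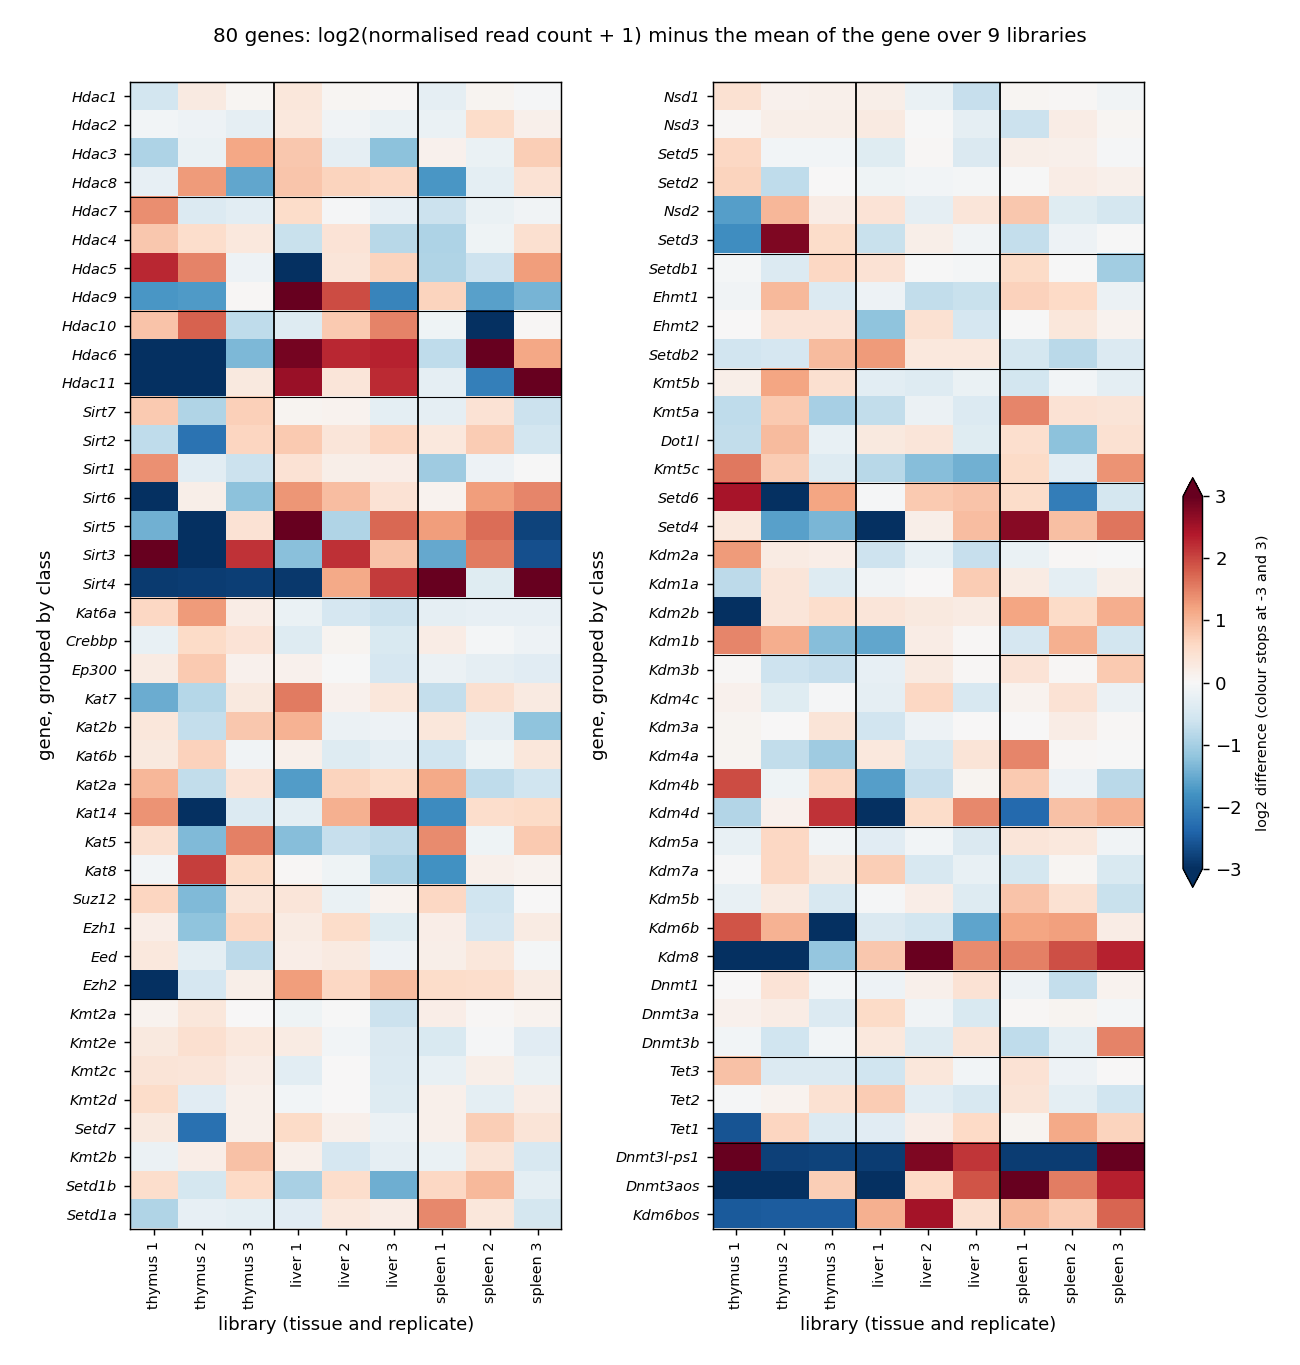
Log2(normalised read count + 1) of each of the 80 genes minus its mean over the 9 libraries (columns), grouped by class in the order of deacetylases, sirtuins, acetyltransferases, methyltransferases, demethylases, DNA enzymes and noncoding models; colour stops at -3 and 3. The strongest colours sit in weakly expressed genes such as Hdac6, Kdm8 and Sirt4 and in the thymus columns.

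Partner proteins that carry or guide these enzymes are given here for their counts and leading genes. Of 93 genes in 5 lists (Polycomb, COMPASS, deacetylase corepressors, acetyltransferase complexes, and other writers and erasers), 89 were tested and 0 passed the adjusted threshold in any of the 3 comparisons by limma-trend. At an unadjusted p under 0.05, 6 were higher (all genes 7.72%) and 6 lower (3.92%) in liver against thymus. In spleen against thymus 5 were higher (7.56%) and 3 lower (4.13%), and in liver against spleen 0 were higher (1.72%) and 1 lower (1.31%). Prmt3, an arginine methyltransferase, was at 1947, 2118 and 3189 in thymus, 435, 534 and 952 in liver, and 3802, 1408 and 1009 in spleen. All liver libraries lay below the rest, with differences of -1.96 (SE 0.56, unadjusted p = 0.0030, adjusted p = 0.194 by limma-trend) from thymus and -1.54 (SE 0.56, unadjusted p = 0.014, adjusted p = 0.9999) from spleen.

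Ash2l, a core COMPASS subunit, was at 29.2, 338 and 257 in thymus, 1585, 439 and 1756 in liver, and 1096, 1186 and 1395 in spleen. Thymus was lowest without overlap, with differences of 2.95 (SE 0.90, limma-trend unadjusted p = 0.0049, adjusted p = 0.222) and 3.14 (SE 0.90, unadjusted p = 0.0032, adjusted p = 0.186). Ring1, a Polycomb ubiquitin ligase, had the smallest p of its list in both thymus comparisons, with differences of 6.01 and 5.91 (SE 1.73) and values of 1.14, 0.0274 and 90.3 in thymus, 400.2, 308 and 430 in liver, and 1003, 85.2 and 504 in spleen. Liver did not overlap thymus, but spleen replicate 2 lay below thymus replicate 3. In the acetyltransferase complexes the smallest p belonged to Kansl3 in liver (3.05, SE 1.40) and Supt20 in spleen (-0.88, SE 0.29), and in the corepressors to Mta1 in liver (-1.23, SE 0.56) and Tbl1xr1 in spleen (0.65, SE 0.33). Ash1l, an H3K36 methyltransferase, had the smallest p of the last list in spleen against thymus (-0.66, SE 0.25). In liver against spleen the smallest p fell to Pcgf6, Men1, Chd4 and Tada2a in the other 4 lists, with unadjusted p from 0.064 to 0.258 and adjusted p of 0.9999 by limma-trend.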

How the data were processed

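The deposited table holds normalised read counts per gene and library, a signal scaled by the authors in a way not given in the sources used here. The submitters' processing notes name Trimmomatic 0.33, TopHat2 2.1.0, HTSeq 0.6.1, edgeR and mm10, and the labels' protocols give an ultralow-input library kit and 76 cycles. Columns were mapped by tissue and replicate number; the column of thymus replicate 2 has an additional letter in its name that the labels do not explain. Annotation and strand setting are not given in the sources used here. Symbols matched 13359 of 14004 identifiers (645 did not). Exon lengths and coordinates came from GENCODE on GRCm38, promoters from RefSeq on GRCm38.p6.

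Genes at 1 or more in at least 3 of 9 libraries (13309) were fitted together with limma-trend (limma 3.58.1, R 4.3.3) on log2(value + 1), with tissue as the only term and Benjamini-Hochberg adjustment at 0.05. Folds are on the log2(value + 1) scale, and those of low genes depend on the pseudocount. Low values step in whole reads, so reads were recovered by dividing by each library's step: 93.1% of 15737 low values (1 to 20 reads) lay within 0.1 read of a whole number after a constant offset per library, 71.4% in liver replicate 3 and at least 98.2% in the others. Without the offset, which was added after that first check, 69.1% did. edgeR 4.0.16 and DESeq2 1.42.0 on those reads were alternatives, 23 alternatives in all.

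Named genes were those with an unadjusted p under 0.05 and no overlap (up to 8 per direction), the highest and lowest of each class, a panel of well-known enzymes, genes at 3 reads or fewer in all libraries of a tissue, the widest and narrowest spreads, and the partner gene of smallest p per list. Others named with values (Kat7, Kmt5a, Sirt6, Hdac11, Hdac5, Kat14 and the genes over the 5-fold range) were chosen after their values were seen. Members, lists and panel were chosen with earlier results of these data known.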

Additional observations from a re-analysis of the deposited data

How the results depend on the processing

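No gene of the 80 passed the adjusted threshold in limma-trend under other pseudocounts, filters, scalings, fits to the 6 samples compared, array weights or a term for the libraries numbered 2, nor with edgeR, default or robust. The robust edgeR fit was kept as an alternative added after seeing the data. DESeq2 on recovered reads called 3 genes in liver against thymus, 2 in spleen against thymus and 1 (Kat6a) for any tissue difference. Over all genes, limma-trend called 43 (27 higher) in liver and 53 (25 higher) in spleen against thymus, and 44 (19 higher) and 92 (27 higher) after TMM scaling. edgeR called 17 and 32, its robust fit 30 and 48, and DESeq2 482 and 538 of the 14004 genes in the table. The DESeq2 calls among the 80 are thus near its share over all genes in both comparisons. For any tissue difference DESeq2 called 376 over all genes. Leaving out 1 library at a time gave 0 to 1 of the 80 in liver against thymus. The 1 was Kat6a without thymus replicate 3, where 151 of all genes were called (123 higher). The cause was not tested.

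The median log2 difference of the 80 depends on the scaling. For liver against thymus it was 0.179 with equal column totals, -0.254 with TMM, 0.394 with equal upper quartiles, -0.137 with edgeR, default or robust, and -0.181 with DESeq2, and -0.135 to 0.105 when a library was left out. For spleen against thymus it was 0.185, -0.293 and 0.354 in the first 3, -0.101 with DESeq2, and -0.083 to 0.102 when a library was left out. The low ends came without thymus replicate 2 and the cause was not tested. For liver against spleen it was -0.134 to -0.002 when a library was left out.

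Libraries of the same number correlated at -0.000732 to 0.0891 across tissues in their deviations from the tissue means, under the 0.1 set for pairing, and 4 of 9 correlated best with their own number. Xist did follow the number, at or above 84543 in the 3 libraries numbered 2, so low correlations do not show that the numbers carry no link. With the replicate block 0 of the 80 passed in every comparison, and the medians were 0.031, 0.018 and -0.059. Depth limits weakly expressed genes most: 1 read in liver replicate 3 is worth 6.05 units, and 0.6003 to 1.25 in the others.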
